A study of Oryctolagus cuniculus with 20 samples.

Results

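Lumican (LUM), decorin (DCN) and fibronectin (FN1) are 3 matrix genes of fibrous connective tissue, and their transcripts were followed in condylar cartilage of the rabbit jaw joint. The array held 22 probes for them among 43603: 2 for LUM, 6 for DCN and 14 for FN1. LUM probes carry the symbol as their gene name. DCN probes carry a LOC number that RefSeq now lists as DCN, and FN1 probes were found by the word fibronectin in their description, which gives no symbol. A further 2 probes were designed on a cDNA clone shared with the LUM probes; they are no members and are given beside them.

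Lumican and decorin are small leucine-rich proteoglycans. Both bind collagen fibrils and limit their lateral growth, and decorin also binds transforming growth factor beta. Fibronectin is a secreted glycoprotein that cells assemble into fibrils through integrins, and those fibrils serve as a scaffold for collagen deposition. The mandibular condyle is covered by fibrocartilage, with a fibrous surface layer rich in type I collagen above the chondrocytes, and all these genes are normally active there.

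All rabbits were male and 6 months old. Untreated rabbits formed the control group (4 arrays), and the other 16 rabbits had internal derangement, an abnormal position or function of the joint disc, induced in the left temporomandibular joint. Their condylar cartilage was taken 1, 2, 4 or 8 weeks later (4 arrays each), 1 RNA sample per one-colour array. How it was induced is not given in the sources used here. The labels name no sham procedure, and give the control group no time or joint side, so the procedure, the time passed and the derangement itself cannot be told apart. The design text assigns separate rabbits to each group, and arrays were treated as separate animals. The study asked how gene expression in this cartilage changes after derangement.

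Per array, the signal's 75th percentile lay between 174.1 and 642.9, and 49.1% to 66.4% of spots were well above background; the lowest of both belonged to 1-week replicate 4. Each group sat on a slide of its own, so slide and group cannot be told apart. The control and 2-week arrays (8) were scanned on 1 day and the others (12) on another, so a comparison of control with 1, 4 or 8 weeks also compares scan days. Cartilage markers checked the tissue: COL2A1, ACAN and CNMD were well above background on every control array, but SOX9 was not above it on any control or 2-week array. All 18 skeletal muscle markers on the array were summed for each sample, in units of that array's 75th percentile. The sums were 114, 583, 10.3 and 5.53 on control replicates 1 to 4 and 1.29 to 4.43 on the 16 derangement arrays. Differences from control are therefore also given without control replicates 1 and 2. This was done for DCN and FN1 at every time, for LUM at 1, 4 and 8 weeks and for VCAN at 4 weeks. The LUM difference at 2 weeks is not given in this way.

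The probes are 60 bases long, and most of those of a gene overlap others of that gene. Overlapping probes repeat a measurement rather than replicate it, and probes apart from each other still read the same RNA samples. The sequences below show how little of each transcript the values rest on. They are printed 5′ to 3′ as listed in the scanner files, and capitals in the first 5 lines mark the stretch shared with a neighbouring probe of the same gene.
DCN, the probe of highest mean: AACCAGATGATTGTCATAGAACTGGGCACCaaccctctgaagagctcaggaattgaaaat
DCN, its neighbour: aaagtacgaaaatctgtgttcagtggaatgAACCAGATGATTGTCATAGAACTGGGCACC
FN1, the probe of highest mean, from the stretch of 6 probes: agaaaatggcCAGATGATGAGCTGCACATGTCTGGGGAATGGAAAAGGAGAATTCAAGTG
FN1, from the stretch of 5 probes: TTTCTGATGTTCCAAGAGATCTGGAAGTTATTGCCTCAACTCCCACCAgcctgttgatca
FN1, from the stretch of 3 probes: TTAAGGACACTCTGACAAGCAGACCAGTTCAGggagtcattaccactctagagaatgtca
FN1, first of a near-identical pair: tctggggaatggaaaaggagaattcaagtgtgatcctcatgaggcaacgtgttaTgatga
FN1, second of that pair: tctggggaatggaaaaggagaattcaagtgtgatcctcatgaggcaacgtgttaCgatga
LUM, the stretch both probes share: gtagccccctagtattatgggaccagtaa

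The DCN probes have listed start bases of 477, 507, 537, 576 and 606, with the sixth apart from them at base 1493. The LUM probes start at bases 731 and 762 of their clone and share the 29 bases shown. The 14 FN1 probes fall on 3 stretches: 5 have listed start bases of 4447 to 4459, 3 overlap one another by sequence, and 6 have listed start bases of 6821 to 6896. Which sequence the DCN and FN1 start bases are counted on was not determined. Among the 6, the near-identical pair differs by T55C, counted from 1 at the 5′ end of the probe, and the capital marks that base. The pair gave the same values within 0.03 log2 units in each comparison with control (-0.52 and -0.52 at 1 week, -0.51 and -0.54 at 2 weeks, 0.01 and -0.01 at 4 weeks, -0.12 and -0.11 at 8 weeks). None of the 22 sequences is carried by another probe. No genome build is named for the array, so no coordinates are given; in the rabbit assembly mOryCun1.1, LUM and DCN are neighbours with 0 annotated genes between them.

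All 22 probes were well above background on all 20 arrays. Levels are log2 signal minus the array's 75th percentile, so 0 is that percentile, and each gene is represented by its probe of highest mean over the arrays. Levels of different genes come from different probes and are not ranked against each other. Differences were fitted with limma over all 20 arrays, with p-values adjusted by Benjamini-Hochberg over the 26905 probes kept, and a call was made at an adjusted p under 0.05. In a bulk sample, fewer cells of a type and less RNA per cell cannot be told apart.

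LUM was lower 1, 4 and 8 weeks after derangement than in untreated rabbits. On control replicates 1 to 4 its level was 7.78, 7.28, 6.87 and 6.21. At 1 week it was 6.07, 5.93, 5.78 and 5.04, all below every control array. At 2 weeks it was 6.83, 6.54, 5.95 and 6.59, within the control range on 3 arrays and below it on 1. At 4 weeks it was 6.38, 5.67, 5.88 and 5.64, so that 1 array lay above the lowest control. At 8 weeks it was 5.12, 6.03, 6.11 and 6.14, again below every control array. Within the control group the spread was the widest of the 5 for this gene, 0.67 (SD, n = 4) around a mean of 7.04, against SDs of 0.34 to 0.49 in the derangement groups.

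**Figure D1:**
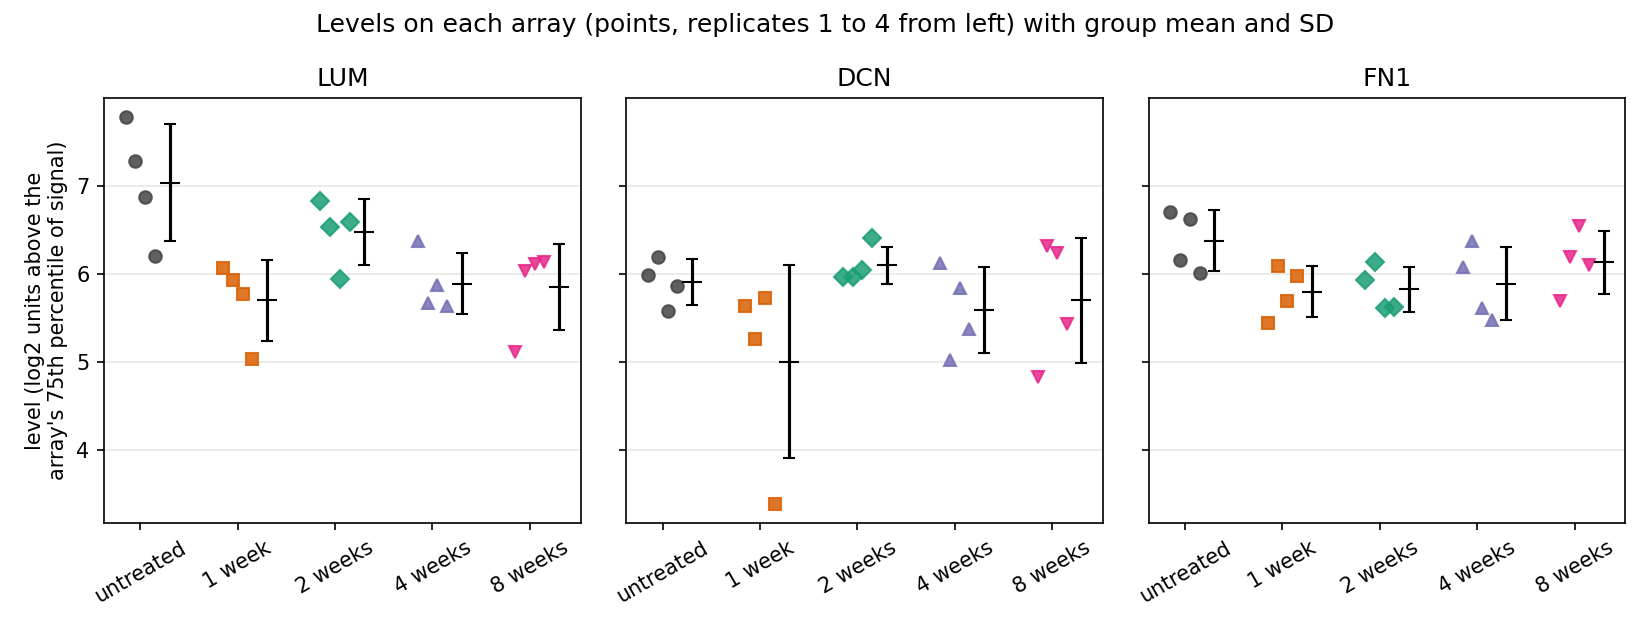
Levels of LUM, DCN and FN1 on each of the 20 arrays (log2 units above the array's 75th percentile of signal), with the mean and SD of each group of 4. All LUM points at 1 and 8 weeks lie below the lowest control (6.21), while for DCN 1 array at 1 week (3.39) lies far below the rest.

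The fall of LUM amounted to 2.52-fold at 1 week (log2 change -1.33 ± 0.32, SE; limma adjusted p = 0.0105), 2.21-fold at 4 weeks (-1.14 ± 0.32; adjusted p = 0.0354) and 2.28-fold at 8 weeks (-1.19 ± 0.32; adjusted p = 0.0219). At 2 weeks the difference was -0.56 ± 0.32 and did not pass (adjusted p = 0.755; 95% interval -1.24 to 0.12). Among all probes tested, 13.9% were called at 1 week (4.21% lower), 0.453% at 2 weeks (0.212% lower), 8.56% at 4 weeks (2.19% lower) and 12.8% at 8 weeks (4.3% lower). Non-overlapping groups with the derangement arrays lower were found for 5.57% of probes at 1 week and 8.76% at 8 weeks. The second LUM probe was called at the same times, at -1.43 (adjusted p = 0.00538), -1.35 (0.0125) and -1.28 (0.0128), with -0.61 (0.705) at 2 weeks.

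The share of the called probes that were higher was 69.7%, 53.3%, 74.5% and 66.3% at 1, 2, 4 and 8 weeks. Centring each array on its median instead gave 49.5%, 57%, 53.2% and 39%. That centring moved the median change of all probes from 0.02 to -0.12 at 1 week, from 0.03 to -0.1 at 4 weeks and from 0.04 to -0.12 at 8 weeks; LUM remained lower under it and under quantile and normexp processing, but its call was lost at 4 weeks with quantile normalization (adjusted p = 0.0525) and at all 3 times with normexp (0.182, 0.456 and 0.372).

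The probes from the shared clone gave similar values. At 1 week they were at -1.33 (adjusted p = 0.00987) and -1.19 (0.023), at 4 weeks at -1.19 (0.0283) and -1.09 (0.0492), and at 8 weeks at -1.07 (0.0348) and -0.98 (0.06). Across the 20 arrays, the 2 LUM probes correlated at r = 0.99, and each of them correlated with the clone probes at 0.98 to 0.99.

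The called falls of LUM rest in part on 2 of the control arrays. Control replicates 1 and 2 held the highest LUM levels and the highest muscle sums. Without both, LUM was at -0.84 (limma adjusted p = 0.198) at 1 week, -0.65 (0.406) at 4 weeks and -0.69 (0.357) at 8 weeks. No call was left, in a smaller control group. The number of all probes called fell as well, from 3745, 2304 and 3433 to 1480, 771 and 965 at these times. With single arrays left out, the 1-week call was kept each time (-1.61 to -1.08). The 4-week call was lost without control replicate 1 (-0.89), 2 (-1.06) or 3 (-1.2) and without 4-week replicate 2, 3 or 4. The 8-week call was lost without control replicate 1 (-0.94) or 2 (-1.11) and without 8-week replicate 1 (-0.95).

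Of 15 muscle genes tested, 11, 7, 12 and 14 were called lower at 1, 2, 4 and 8 weeks. Among all probes the shares called lower were 4.21%, 0.212%, 2.19% and 4.3%. Of the 18 muscle markers on the array, 6, 9, 10 and 7 were above background on no array at these times, against 1 in the control group. A gene kept for testing through the control group alone could hardly be called other than lower, so the filter favoured these counts. The muscle sum was 2.05 to 4.43 at 1 week, 1.32 to 3.17 at 2 weeks, 1.4 to 2.49 at 4 weeks and 1.29 to 1.72 at 8 weeks. Summed macrophage and monocyte markers (CD14, MSR1, TLR4) were 5.03 to 7.36 on control arrays, 2.52 to 4.83 at 1 week, 2.57 to 5.93 at 2 weeks, 1.94 to 4.02 at 4 weeks and 2.53 to 5.05 at 8 weeks. Of these, 1 gene was called lower at 1 week, all 3 at 4 weeks and 0 at 2 and 8 weeks in limma (0 and 1 at an unadjusted p under 0.05). The shares of all probes called lower were 4.21% at 1 week, 2.19% at 4 weeks, and 0.212% and 4.3% at 2 and 8 weeks. Control replicate 1, the array with the highest LUM level, also had the highest macrophage sum, while control replicate 2, with the second highest LUM level, had the lowest macrophage sum of the controls. Hyaline cartilage markers (COL2A1, ACAN, SOX9, CNMD) summed to 374 to 748 on control arrays, 511 to 2500 at 1 week, 195 to 508 at 2 weeks, 658 to 1370 at 4 weeks and 149 to 828 at 8 weeks. Markers of hypertrophic chondrocytes and bone (COL10A1, IHH, RUNX2, SPP1, MMP13) summed to 492 to 802, 604 to 1350, 446 to 728, 537 to 1110 and 527 to 695. The part of muscle, macrophage and cartilage transcripts in the LUM result was not tested.

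**Figure D2:**
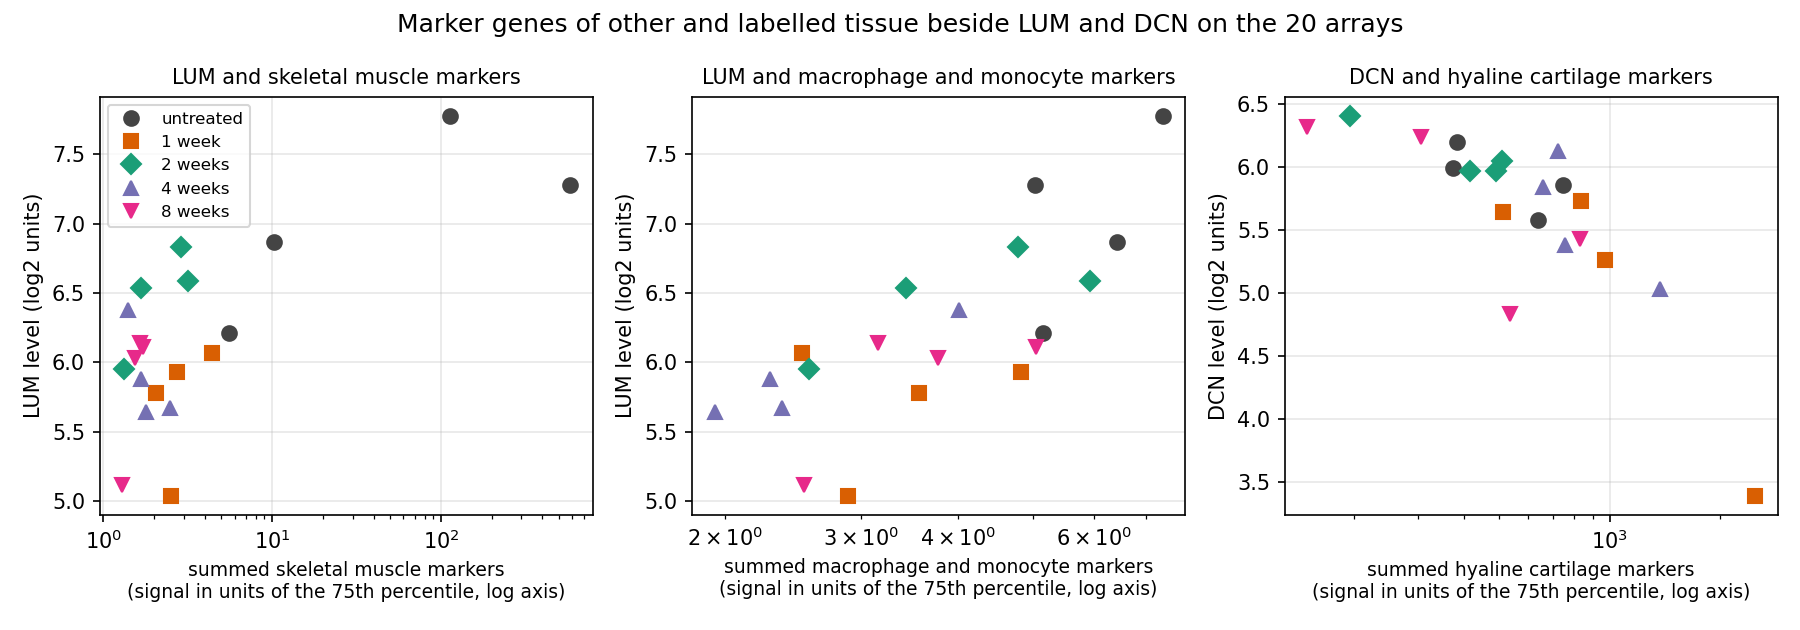
LUM level against the summed skeletal muscle markers (left) and macrophage and monocyte markers (middle), and DCN level against the summed hyaline cartilage markers (right), 1 point per array, with sums on log axes in units of the array's 75th percentile. The 2 highest LUM levels, 7.78 and 7.28, are on the arrays with muscle sums of 114 and 583, and the lowest DCN level, 3.39, is on the array with the highest cartilage sum, 2500.

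Ordered by mean, LUM ran from control (7.04) over 2 weeks (6.48), 4 weeks (5.89) and 8 weeks (5.85) to 1 week (5.71). No 2 derangement groups differed beyond the test's threshold: 2 weeks exceeded 1 week by 0.77 ± 0.32 (limma adjusted p = 0.133; 95% interval 0.09 to 1.45), and 4 and 8 weeks differed by -0.05 ± 0.32 (adjusted p = 0.972). The 4-week and 8-week groups were each within 0.2 of the 1-week group (0.19 and 0.14). Among all probes, 1.07% were called between 1 and 4 weeks, 0.0149% between 1 and 8 weeks, 4.3% between 2 and 4 weeks, 8.62% between 2 and 8 weeks and 0.558% between 4 and 8 weeks. The 1-, 4- and 8-week groups shared a scan day, and the 2-week group was scanned on the other. The F test over the 5 groups called LUM (F = 5.96, adjusted p = 0.0288), as it did 15.8% of all probes; it was lost without control replicate 1, 2 or 3.

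DCN showed no called change. On control replicates 1 to 4 its level was 5.99, 6.2, 5.58 and 5.86. At 1 week it was 5.64, 5.26, 5.73 and 3.39, with the fourth array far below every other of the series. At 2 weeks the 4 arrays lay close together at 5.97, 5.97, 6.05 and 6.41. At 4 weeks they were at 6.13, 5.03, 5.84 and 5.38, and at 8 weeks at 4.83, 6.32, 6.24 and 5.43, so the 4-week arrays lay within or below the control range and the 8-week arrays reached past both its ends.

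Against control, DCN was at -0.9 ± 0.43 (SE) at 1 week (limma adjusted p = 0.169), 0.2 ± 0.43 at 2 weeks (0.982), -0.31 ± 0.43 at 4 weeks (0.706) and -0.2 ± 0.43 at 8 weeks (0.805). The sign at 2 weeks turned under normexp background correction (-0.02), and at 8 weeks under quantile normalization (0.02) and without 8-week replicate 1 (0.09). The 95% intervals ran from -1.81 to 0 at 1 week and from -1.11 to 0.7 at 8 weeks, so a change of LUM's size at 1 week lies within the former. Without control replicates 1 and 2 the differences were -0.72, 0.38, -0.13 and -0.02. The 1-week value depended on replicate 4: without it, DCN was at -0.37 (adjusted p = 0.515). All 6 DCN probes were below control at 1 week (-1.19 to -0.81) and above it by 0.05 to 0.2 at 2 weeks, and 0 were called at any time in limma. Before adjustment, 29.4%, 7.75%, 23.8% and 27.5% of all probes had a p under 0.05 at 1, 2, 4 and 8 weeks; the DCN probe of highest mean was among them at 1 week (limma unadjusted p = 0.0494). The probe at base 1493 had the largest difference at 1 week, -1.19 ± 0.41 (adjusted p = 0.0605), and all its 1-week arrays lay below control. It also stood below the other DCN probes in its differences at 4 weeks (-0.7, against -0.44 to -0.22) and 8 weeks (-0.65, against -0.37 to -0.03).

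The highest step of DCN between derangement groups was from 1 to 2 weeks, 1.1 ± 0.43 (limma adjusted p = 0.108; 2.14-fold). The groups did not overlap for any of the 6 probes, with the 2-week arrays higher, which held for 6.55% of all probes; 11.4% of all probes were called in that comparison. Those groups were scanned on different days. By mean, DCN ran from 2 weeks (6.1) over control (5.91), 8 weeks (5.7) and 4 weeks (5.59) to 1 week (5), and no neighbours in this order differed beyond the threshold.

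The cartilage markers also varied beside DCN. The array with the lowest DCN level (1-week replicate 4) had the highest sum of COL2A1, ACAN, SOX9 and CNMD, 2500, beside its low signal and low share of spots above background. The second highest sum, 1370 on 4-week replicate 2, came with a DCN level of 5.03, but the second lowest level, 4.83 on 8-week replicate 1, came with a middling sum of 535. The lowest sums, 149 on 8-week replicate 2 and 195 on 2-week replicate 4, came with the 2 highest levels, 6.32 and 6.41. Over the 20 arrays the log2 of this sum correlated with DCN at r = -0.81, and at -0.8 with group means removed. For LUM these values were -0.5 and -0.55, and for FN1 -0.06 and 0.16. Of these 4 markers, 1 (SOX9) was called higher at 1 week, as were 9.71% of all probes. Lower at 2 weeks than at 1 week were 3 (ACAN, SOX9, CNMD), as were 7.46% of all probes. SOX9 was well above background on every 1-week array but on no control or 2-week array. Both of its calls therefore set the 1-week group against signal at background. The part of cartilage transcripts in the DCN differences was not tested.

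FN1 showed no called change either. Its levels were 6.71, 6.16, 6.63 and 6.01 on control replicates 1 to 4. They were 5.45, 6.09, 5.69 and 5.98 at 1 week, and 5.93, 6.14, 5.61 and 5.63 at 2 weeks. In both groups some arrays lay above the lowest control and none above the second lowest. At 4 weeks the levels were 6.08, 6.38, 5.62 and 5.48, and at 8 weeks 5.69, 6.19, 6.55 and 6.1, overlapping the controls more widely.

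The FN1 differences were -0.57 ± 0.23 (SE) at 1 week (limma adjusted p = 0.106), -0.55 ± 0.23 at 2 weeks (0.557), -0.49 ± 0.23 at 4 weeks (0.207) and -0.24 ± 0.23 at 8 weeks (0.538). Before adjustment the limma p was 0.0229, 0.028 and 0.0488 at 1, 2 and 4 weeks. The 4-week value passed with array weights in the fit (-0.67, adjusted p = 0.0444), and in no other setting tried. Without control replicates 1 and 2 the differences were -0.52, -0.49, -0.43 and -0.19 at 1, 2, 4 and 8 weeks. All 14 FN1 probes were below control at 1 week (-0.57 to -0.29) and at 2 weeks (-0.7 to -0.49). Groups without overlap were found for 4 of 14 at each of these times, against 5.57% and 1.46% of all probes; overlapping probes count the same bases more than once. By mean, FN1 ran from control (6.38) over 8 weeks (6.13), 4 weeks (5.89) and 2 weeks (5.83) to 1 week (5.8), and no neighbours in this order differed beyond the threshold.

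The FN1 probes parted at 4 weeks. The probe of highest mean was at -0.49, but the median of the 14 was -0.11, with 3 probes above control and a range of -0.49 to 0.08. The 6 probes from bases 6821 to 6896 spanned that whole range, while the 5 from bases 4447 to 4459 were at -0.15 to -0.11. The 3 probes of the remaining stretch also parted, at -0.38 to -0.01. The probes also tracked each other less closely than those of LUM or DCN: pairs of FN1 probes correlated at 0.61 to 1 over the 20 arrays (median 0.84), against 0.89 to 0.99 for DCN (median 0.99). The fitted value of FN1 at 4 weeks therefore depends on the probe.

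**Figure D3:**
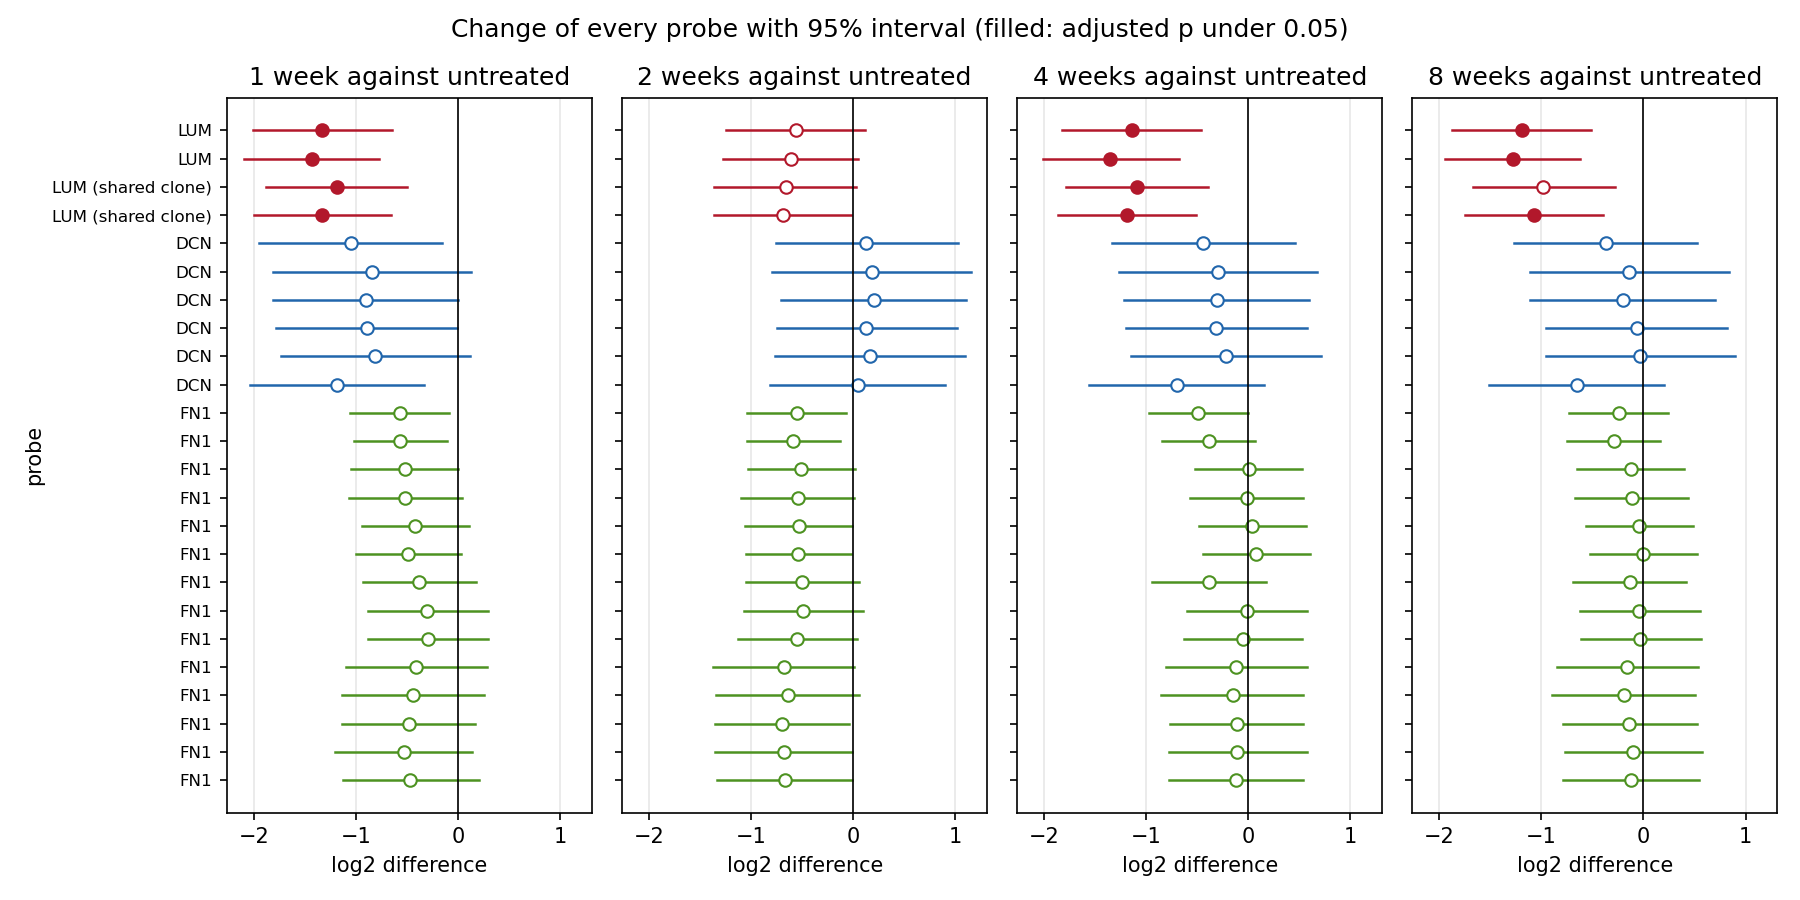
Log2 difference from the untreated group for each of the 22 probes and the 2 probes of the shared LUM clone at 1, 2, 4 and 8 weeks, with 95% intervals; filled points have an adjusted p under 0.05, and probes of a gene are in order of their source sequence and start. The filled points are the LUM probes at 1, 4 and 8 weeks and the shared-clone probes (both at 1 and 4 weeks, 1 of them at 8 weeks), and all FN1 probes lie to the left of 0 at 1 and 2 weeks.

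A call for LUM and none for DCN or FN1 does not show that they changed unequally, so the difference between 2 genes on the same array was compared between each derangement group and control. Over 12 exact two-sided permutation tests, 0 passed after Benjamini-Hochberg adjustment. With 4 arrays against 4 the p cannot go below 0.0286, and a single test at that floor cannot pass after adjustment over 12. That 0 passed was thus nearly fixed in advance and does not show that the genes changed equally. LUM relative to FN1 was at -0.94 against control at 8 weeks, with no overlap of the groups (exact permutation p = 0.0286, adjusted 0.228). LUM relative to DCN was at -0.98 at 8 weeks and -0.83 at 4 weeks (exact permutation p = 0.0571 for both, adjusted 0.228). At 2 weeks LUM and FN1 differed from control by the same amount (-0.01, exact permutation p = 0.914), and DCN relative to FN1 was at 0.75 (exact permutation p = 0.114, adjusted 0.274).

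LUM and DCN varied together over the 20 arrays taken as a whole. Pearson's r over 20 arrays was 0.64 (permutation p = 0.00307, adjusted over 6 tests 0.00921) and Spearman's rho 0.63 (p = 0.00315, adjusted 0.0189). With group means removed r was 0.63 (permutation p = 0.0028, adjusted 0.00921) and rho 0.56 (p = 0.0128, adjusted 0.0384). Without the 2 arrays farthest from the LUM median, control replicates 1 and 2, r was 0.71. Within scan days r was 0.02 over the 8 control and 2-week arrays and 0.84 over the 12 others, and with group means removed it was 0.31 and 0.85. The difference between days was not tested. The permutations of all 6 tests shuffled the 20 arrays without regard to group, slide or scan day, also where group means were removed. Their p-values may therefore be too small.

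LUM and FN1 gave r = 0.5 (permutation p = 0.0262, adjusted 0.0524) and rho = 0.45 (p = 0.0479, adjusted 0.0958) over 20 arrays. That r fell to 0.31 without the same 2 control arrays, and was 0.74 on the first scan day and 0.25 on the second. With group means removed r was 0.39 (permutation p = 0.093, adjusted 0.14) and rho 0.38 (p = 0.0976, adjusted 0.146). DCN and FN1 gave r = 0.08 (permutation p = 0.738, adjusted 0.773) and rho = 0.16 (p = 0.498, adjusted 0.598). With group means removed these were -0.07 (permutation p = 0.773) and -0.04 (p = 0.856). Without the 2 arrays farthest from the DCN median r was 0.01, and it was -0.61 and 0.12 within the scan days.

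**Figure D4:**
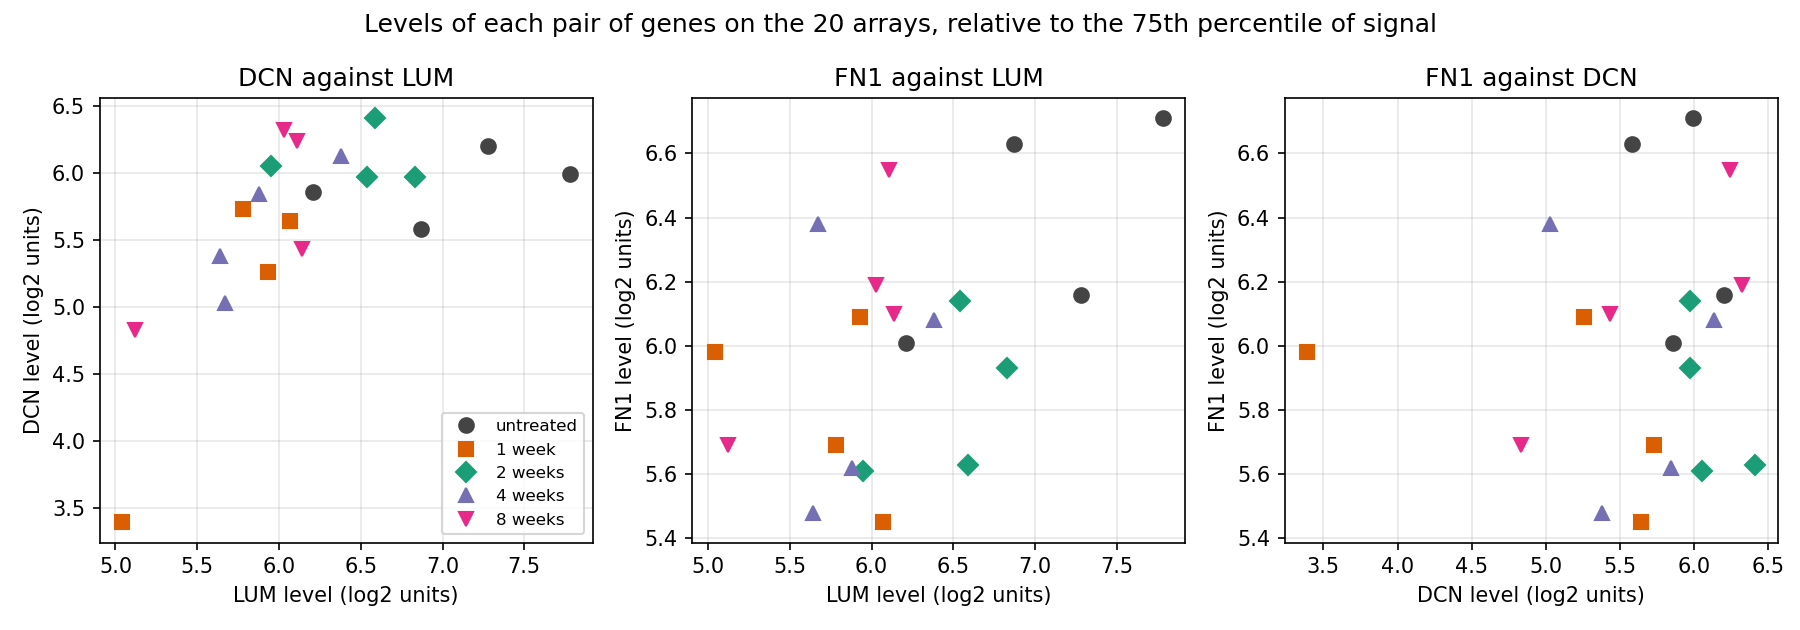
Levels of DCN against LUM, FN1 against LUM and FN1 against DCN on the 20 arrays (log2 units relative to the 75th percentile), marked by group. For DCN and LUM, r is 0.84 among the 1-, 4- and 8-week arrays and 0.02 among the control and 2-week arrays (0.85 and 0.31 with group means removed).

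Of the other genes of fibrous matrix, few were on the array under a name, since 5.68% of probes could be named. The small leucine-rich proteoglycans biglycan (BGN) and osteoglycin (OGN) were the 2 measured of 12 listed, and neither was called. BGN was at 0.58 ± 0.27 at 1 week (limma adjusted p = 0.16) and 0.7 ± 0.27 at 8 weeks (0.101), opposite in sign to LUM, and OGN at -0.09 ± 0.53 and -0.2 ± 0.53. Of 4 fibrous collagens measured (COL1A2, COL3A1, COL5A1, COL12A1), 0 were called against control at any time in limma, and 0 had an unadjusted p under 0.05. Their median change was 0.03, -0.05, -0.11 and -0.13 at 1, 2, 4 and 8 weeks, against 0.02, 0.04, 0.03 and 0.04 for all probes. COL1A2, a chain of type I collagen, was at 0.05 ± 0.2 at 1 week (adjusted p = 0.895), and COL3A1, type III collagen, at 0.01 ± 0.17 (0.981). Of the 9 other COL1A2 probes, 1 was also above control at 1 week. The fibroblast and tendon markers COL1A2, COL3A1 and TNMD summed to 1060 to 1380 on control arrays and 932 to 1620 on derangement arrays. That sum says little about TNMD, which was not well above background on all 4 arrays of any group. Of these 3 genes, 0 were called against control in limma. At an unadjusted p under 0.05 there was 1, TNMD, lower at 8 weeks.

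The 4 fibronectin receptor subunits measured, integrins ITGA5, ITGB1, ITGAV and ITGB3, had 0 calls against control in limma (1, ITGB3 at 1 week, at an unadjusted p under 0.05), with a median change of -0.34 at 1 week and 0.01, -0.09 and -0.14 at 2, 4 and 8 weeks. ITGA5 and ITGB1 form the main fibronectin receptor and were at 0.05 ± 0.17 (adjusted p = 0.876) and -0.29 ± 0.18 (0.298) at 1 week. Of the 10 other ITGB1 probes, 5 were also below control then. ITGB3 had the largest difference, -0.79 ± 0.29 at 1 week (adjusted p = 0.0812). SERPINH1, a collagen chaperone and the 1 measured gene of collagen processing, was at 0.2 ± 0.24 at 1 week (adjusted p = 0.604).

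Among 3 matrix glycoproteins, versican (VCAN), a large proteoglycan that binds hyaluronan, was called lower at 4 weeks. Its control range was -1.27 to 0 and its 4-week range -2.82 to -1.64, without overlap (as for 5.86% of all probes, derangement arrays lower), for a change of -1.49 ± 0.38 (limma adjusted p = 0.0214; 2.81-fold). It was at -1.06 at 1 week (adjusted p = 0.0736) and -1.07 at 8 weeks (0.0731). Like LUM it lost its call without control replicates 1 and 2 (-1.27, adjusted p = 0.193), and also without control replicate 2 or 3 or 4-week replicate 2 or 4 alone (-1.68 to -1.25 over all arrays left out). POSTN, periostin, was at 0.38 ± 0.26 (adjusted p = 0.347) and THBS2, thrombospondin 2, at 0.37 ± 0.35 (0.514) at 1 week.

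Of 3 genes of transforming growth factor beta signalling, 0 were called against control in limma; at an unadjusted p under 0.05 there was 1 each at 1, 4 and 8 weeks. CCN2, a connective tissue growth factor that the pathway induces, was at 1.19 ± 0.43 at 1 week (adjusted p = 0.0764) and 1.21 ± 0.43 at 4 weeks (0.0941), and near control at 2 weeks (0.1 ± 0.43) and 8 weeks (0.11 ± 0.43). TGFB1 and TGFB2 themselves were not called at any time. TGFB1 was at 0.55 ± 0.2 at 8 weeks (limma adjusted p = 0.0733), with all 8-week arrays above control, as for 13.8% of all probes. TGFB2 was at -0.38 ± 0.26 then (adjusted p = 0.368).

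By likeness of level over the 20 arrays, among 628 other named genes, LUM was followed most closely by CLIC1 (r = 0.88), the plasminogen activator PLAU (0.85), DYNLL1 (0.83) and SSBP1 (0.81). DCN was followed by the angiotensin receptor AGTR1 (0.9), protein S, PROS1 (0.88), FMO1 (0.87) and the growth hormone receptor GHR (0.87). FN1 had looser partners, PLTP (0.75), HIF1A (0.74), FTL (0.71) and SAA3 (0.71). These values rank genes by pattern alone; arrays share their group, scan day and scaling. PLAU was at -1.06, -0.63, -1.02 and -0.66 against control at 1, 2, 4 and 8 weeks, and AGTR1 at -1.78, 0.42, -0.13 and -0.41.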

How the data were processed

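Spot values came from Agilent Feature Extraction 10.7.1.1, per the file headers and the submitters' processing notes. The deposited intensity of each spot was used as processed by that software, together with the deposited flags for other properties of a spot (well above background, outlier, saturated). Of 43803 spots per array, 5 to 62 marked as outliers were dropped, and the 50 probes that have 5 spots were represented by the mean of those spots. The authors' value table, also intensity, equals the scanner values on a linear scale, except that each 8-week column equals another 8-week array, so replicate numbers in that group are uncertain in 1 source. Its column medians ran from 28.3 to 90.

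From each log2 intensity the 75th percentile of its array was subtracted. Probes well above background on at least 3 of 4 arrays of a group were kept (26905 of 43603, 61.7%). Group means were fitted with limma 3.58.1 (lmFit, eBayes; R 4.3.3) over all 20 arrays, with two-sided p-values adjusted by the Benjamini-Hochberg method. The fit was tested on simulated data. Errors are SE of that fit or SD over 4 arrays, and the number of arrays limits the precision. Permutation tests used scipy and 100000 resamples for correlations. Names came from the files and a RefSeq table (mOryCun1.1), for 2478 probes (5.68%). The text covers every probe of the 3 genes, singly or in ranges, the 4 named genes most like each, and up to 4 measured genes per list by F test. 1 gene of the transforming growth factor beta list is not reported here. The members and gene lists were chosen with earlier results of these data known. Marker lists for synovium, endothelium, bone, red blood cells and fat were also computed. Of the measured genes of the synovial, endothelial and red blood cell lists, 0 were called against control in limma. At an unadjusted p under 0.05 there were 2 synovial genes and 1 endothelial gene at 1 week, and 1 endothelial gene each at 2 and 8 weeks. In the bone list 1 gene (IHH) was called higher at 1 week, as were 9.71% of all probes, and no fat gene was measured.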

Additional observations from a re-analysis of the deposited data

Results flagged for a closer look

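In 20 groups of 4 arrays (LUM, DCN, FN1 and VCAN in 5 groups), a sample standing apart was looked for with Dixon's test, which chance passes in about 1 of 20 groups. The LUM level of 5.12 on 8-week replicate 1 stood apart from the other 3, which began at 6.03. It is also the array without which the 8-week call of LUM was lost and the DCN difference turned sign.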

How the results depend on the processing

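LUM stayed below control in every setting tried. Its calls at 1, 4 and 8 weeks were lost without control replicates 1 and 2 (-0.84, -0.65 and -0.69; F = 3, adjusted p = 0.193), in fits to the 2 groups alone (-1.33, -1.14 and -1.19; adjusted p = 0.0757, 0.0748 and 0.0694) and with normexp background correction (-1.33, -1.01 and -1.08; adjusted p = 0.182, 0.456 and 0.372; F = 3.41). At 4 weeks the call was also lost with no filter (-1.14, adjusted p = 0.0547) and quantile normalization (-1.03, adjusted p = 0.0525; F = 5). Under normexp the median SD of the 2-week group was 0.532 against 0.237, and 60, 0, 30 and 42 probes were called by limma at 1, 2, 4 and 8 weeks, against 3745, 122, 2304 and 3433. Counts also moved to 1480, 54, 771 and 965 without control replicates 1 and 2. Fits to 2 groups gave 1397 at 1 week and 0 at 2 weeks, as did the fit within the scan day at 2 weeks (2249 at an unadjusted p under 0.05, and 578 with normexp); no filter gave 74 at 2 weeks, and array weights 377, 5028 and 5579 at 2, 4 and 8 weeks. These counts over all probes moved beyond the members; the cause was not tested.

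With array weights, FN1 passed at 4 weeks (-0.67). VCAN lost its call under normexp (-1.1) and without control replicates 1 and 2 (-1.27). DCN changed sign at 2 weeks with normexp (-0.02) and at 8 weeks with quantile normalization (0.02). Uncalled differences between times that changed sign were FN1 at 2 against 1 week (-0.13 for the mean of its probes, -0.16 with normexp, -0.15 with quantile normalization) and at 4 against 2 weeks (-0.07 with array weights, -0.08 with median centring), and LUM at 4 against 1 week (-0.01 with array weights) and 8 against 4 weeks (0.06 with array weights, 0.01 for the mean of its probes). Correlations: LUM with DCN had r = 0.56 with quantile normalization (adjusted p = 0.0534). LUM with FN1 passed with normexp (r = 0.58, and 0.62 with group means removed), and DCN with FN1 turned to -0.05 with quantile normalization, -0.01 for the mean of probes and, with group means removed, 0.25 with normexp. Differences between members turned for DCN minus FN1 with the mean of probes (-0.25 at 4 weeks, -0.12 at 8 weeks) and for LUM minus FN1 at 2 weeks without control replicates 1 and 2 (0.43).

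With single arrays left out, LUM ranged from -1.61 to -1.08 at 1 week, -1.42 to -0.89 at 4 weeks and -1.46 to -0.94 at 8 weeks (F from 4.34 to 8.93), DCN at 8 weeks from -0.41 to 0.09 and VCAN at 4 weeks from -1.68 to -1.25. Differences between times that changed sign in this way ranged from -0.1 to 0.4 (DCN, 8 against 4 weeks), -0.09 to 0.12, -0.08 to 0.22 and -0.1 to 0.2 (FN1, 2 against 1, 4 against 1 and 4 against 2 weeks) and -0.03 to 0.31, -0.08 to 0.39 and -0.14 to 0.2 (LUM, 4 against 1, 8 against 1 and 8 against 4 weeks). DCN minus FN1 ranged from -0.66 to 0.27, -0.02 to 0.53 and -0.15 to 0.21 at 1, 4 and 8 weeks, and LUM minus FN1 from -0.16 to 0.15 at 2 weeks. The correlation of LUM with FN1 ranged from 0.33 to 0.57 and passed in 6 of 20 such settings. With group means removed it ranged from 0.26 to 0.5 and passed in 3 of 20. That of DCN with FN1 ranged from -0.27 to 0.07 with group means removed.

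Arrays with the same replicate number in different groups did not deviate together (correlation of deviations from -0.33 to 0.38, median 0.01, over 40 pairs), so the numbers are not taken as pairs. With the replicate number as a block, LUM was at -1.33, -1.14 and -1.19 at 1, 4 and 8 weeks (adjusted p = 0.0127, 0.0394 and 0.0248; F = 6.2), and the block changed no other call. The scan day could not be fitted as a random block because every group lies within 1 day. Every member probe lay well above background on every array, and each group has 4 arrays.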
